A study of Ictalurus punctatus with 24 samples.

Results

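The genes mogat2, cidec and zgc:162608, which act in fat absorption, fat storage and lipoproteins, were followed through the intestine and liver of channel catfish (Ictalurus punctatus) that had eaten frass, the residue left by black soldier fly larvae. The genes were picked by name as 3 of the 63022 transcript features in the count tables, and the choice rested on earlier results of these libraries. Fish were fed a basal diet with 0 g of frass per kg (control), 50 g per kg (low frass) or 300 g per kg (high frass) for 10 weeks, and poly(A) RNA was sequenced from 4 pools of intestine and 4 pools of liver per diet, 24 libraries in all. All fish were Marion strain fingerlings kept under the same conditions. Frass replaced part of the soybean meal, wheat, corn meal and corn oil of the basal diet, so that frass and the removal of these ingredients cannot be told apart. Each library came from a pool of fish, 3 per pool by the sample labels and 4 per pool by the published methods, and nothing says which stretch of intestine was taken. The liver libraries high frass replicate 3 and low frass replicate 3 were left out of the comparisons. The study had left out the same pair, for low transcript integrity in the high frass library and a distant position in a principal component analysis in the low frass library.

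Dietary fat is cut into monoacylglycerol and fatty acids in the gut lumen, taken up by enterocytes, rebuilt into triacylglycerol and then either packed with apolipoproteins into lipoproteins for export or kept for a time in cytoplasmic lipid droplets. The mogat2 product, monoacylglycerol O-acyltransferase 2, catalyses the opening step of that rebuilding in mammalian enterocytes. The cidec product sits on lipid droplets, where in mammalian fat cells it promotes their fusion into larger droplets. The zgc:162608 product is annotated as a member of the apolipoprotein A1/A4/E family, the exchangeable apolipoproteins that coat lipoproteins and that liver and intestine both secrete in vertebrates.

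All 3 genes have a single annotated transcript in the Coco_2.0 assembly, so that no reads were lost to a second transcript of the same gene. The gene mogat2 (feature rna-XM_017489328.3) lies on chromosome 16 at 4905399 to 4911537. The gene cidec (rna-XM_017479207.2) lies on chromosome 11 at 12135083 to 12138831, and zgc:162608 (rna-XM_053687397.1) lies on chromosome 17 at 8226864 to 8228970. Levels are given as CPM, counts scaled to a common library size, after TMM scaling, a correction for differences in RNA composition that was done within each tissue. Sequencing depth was 12534783 to 17371695 counts per intestine library and 12076582 to 15604418 per liver library that was kept. Fewer cells of a type and less RNA per cell cannot be told apart in such bulk tissue.

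Some libraries stood apart in ways that touch the results below. The 12 intestine libraries fell into 2 sets of 6 when they were clustered on 10324 features, without the 3 genes and without the lipid and gut marker lists. The median correlation between libraries was 0.971 within a set and 0.895 between sets. The sum of the markers of anterior gut (among them fabp2, the brush border sugar enzyme gene si and the amino acid transporter gene slc6a19) was 24292 to 71998 CPM in 1 set and 665 to 2874 CPM in the other, and the sets are called anterior-like and posterior-like. The sum of the enterocyte markers, a list that shares the gene slc15a1 with that of anterior gut, also stood apart. It was 21619 to 73489 CPM in anterior-like and 4752 to 7664 CPM in posterior-like libraries. The listed gene cdx1a did not follow the sum, at 572 to 819 CPM in anterior-like and 638 to 1057 CPM in posterior-like libraries. The part of enterocyte content in the split was not tested. Of the posterior gut markers, lrp2a and dab2 were at 0 in all 12 libraries and fabp6 was high in libraries of both sets. The summed list overlapped, at 47.7 to 8229 CPM in anterior-like and 4433 to 6548 CPM in posterior-like libraries. Only 5 of the 10 matched genes on this list had a single transcript. Reads in exons that transcripts share went uncounted, so a 0 need not mean absence. Of the anterior-like libraries 2 came from control fish, 3 from low frass fish and 1 from high frass fish, against 2, 1 and 3 of the posterior-like libraries in the same diet order. Acinar pancreas markers ran over 22.9 to 17590 CPM in anterior-like and 13.1 to 29.4 CPM in posterior-like libraries, with overlap at the low end. Only 4 genes matched that list, and amy2a among them was at 0. Hepatocyte markers summed to 160748 to 243541 CPM in the 10 kept livers and to 8.49 to 160 CPM in the intestine. Low frass liver replicate 3, which was left out, held 193 CPM of hepatocyte markers and correlated more closely with the intestine libraries (r 0.886 to 0.970) than with the kept livers (0.646 to 0.663).

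The clearest feature of mogat2 was where it was found. It was abundant in every intestine library and close to absent from every kept liver, and within the intestine its level followed the 2 sets of libraries rather than the diets. Control intestine held 73.1, 390, 436 and 128 CPM of mogat2 in replicates 1 to 4. Low frass intestine held 438, 381, 105 and 614 CPM, and high frass intestine held 67.9, 121, 114 and 509 CPM. The high values, 381 CPM and above, were those of the 6 anterior-like libraries, and the low values, 128 CPM and below, were those of the 6 posterior-like libraries, so that every diet had libraries at both levels. In the kept livers mogat2 had only 3 to 10 counts per library, or 0.215 to 0.751 CPM.

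**Figure D1:**
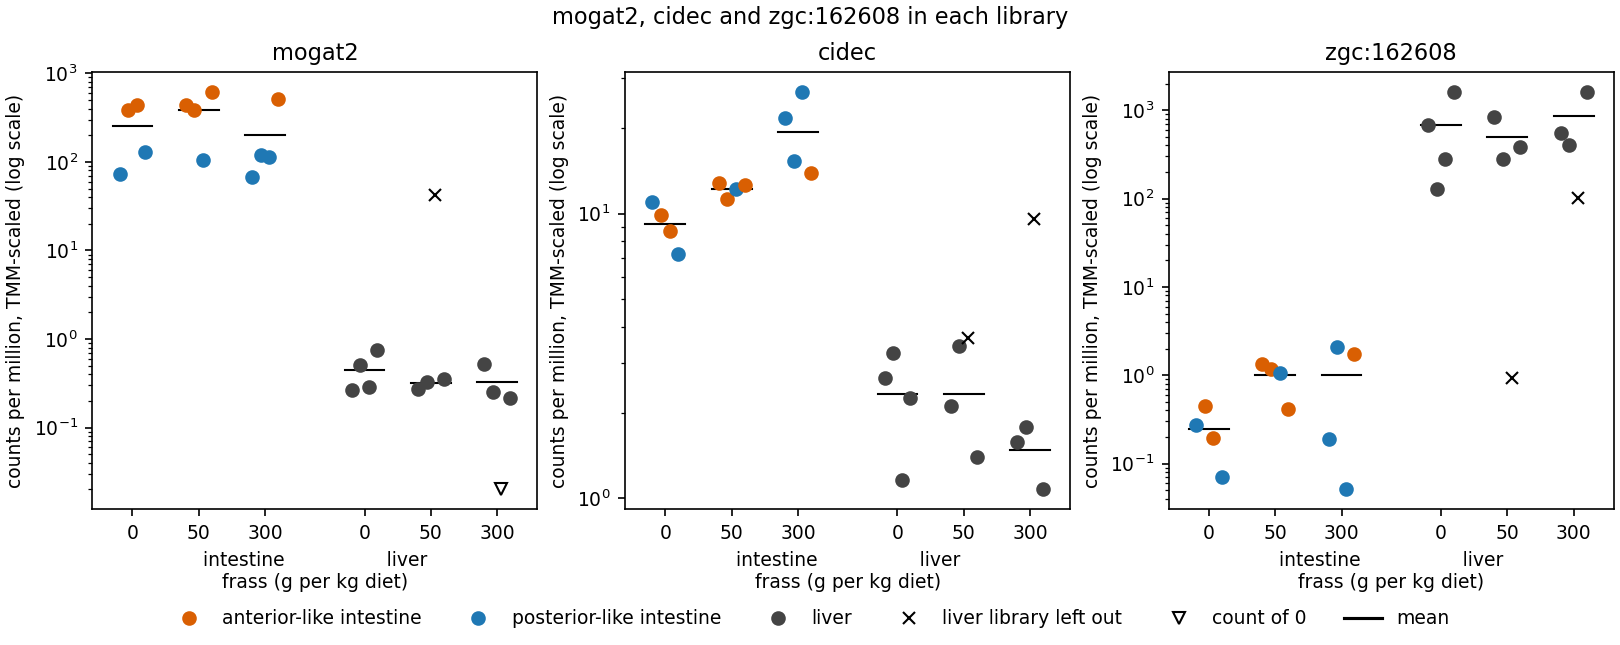
TMM-scaled CPM (log scale) of mogat2, cidec and zgc:162608 in each library, by tissue and by grams of frass per kg of diet; points are single libraries, horizontal bars are group means without the crossed libraries, and crosses and the open triangle are the 2 liver libraries left out. The mogat2 points of the intestine split by library set, the cidec points of the intestine stand in the order of the frass dose under this scaling though not on library totals, and zgc:162608 is high in the kept livers and near its detection limit in the intestine.

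The mean of mogat2 was 462 ± 87.4 CPM in anterior-like libraries and 102 ± 25.3 CPM in posterior-like libraries (SD, n = 6 each), a ratio of 4.55. The sets were defined from the data, so this difference is a description and was not tested. Within each set the diets lay close together. The posterior-like means were 101 CPM in control (n = 2), 105 CPM in low frass (n = 1) and 101 CPM in high frass (n = 3), and the anterior-like means were 413 CPM in control (n = 2), 478 CPM in low frass (n = 3) and 509 CPM in high frass (n = 1).

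Low frass intestine averaged 385 ± 211 CPM of mogat2 and control intestine 257 ± 183 CPM (SD, n = 4 each), with 3 of the 4 low frass libraries above the control median. The groups overlapped, and the log2 fold change of 0.58 (SE 0.74) had an adjusted p of 0.9996 in edgeR's quasi-likelihood test and p = 0.429 in the exact two-sided permutation test, in which the smallest possible p was 0.0286. High frass intestine averaged 203 ± 205 CPM, against the same 257 ± 183 CPM in control, and the log2 fold change was −0.34 (SE 0.74, edgeR adjusted p = 0.998, exact permutation p = 0.743). With the library set as a block the high frass value became 0.12, with an SE of 0.25 in place of 0.74. The 95% interval without the block ran from −1.80 to 1.12, which includes 2-fold differences in either direction.

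Part of the listed fat absorption genes showed the same split between library sets. Of 13 tested features on the list of enterocyte fat uptake, 5 were over 2-fold higher in the anterior-like libraries and 0 in the posterior-like ones, as were 3 against 0 of 7 for triacylglycerol synthesis, with mogat2 itself among the 3, and 4 against 0 of 8 for lipoprotein assembly. Of the other lists, lipid regulators gave 5 against 1 of 11 and apolipoproteins 3 against 0 of 8. The lipid droplet list gave 2 against 0 of 8 and lipoprotein clearance 1 against 2 of 9. The genes apoba and apoc1, both over 2-fold higher in the anterior-like set, count on the lipoprotein assembly list and on the apolipoprotein list. With lipid regulators also among the lists that split, the split was not particular to fat absorption genes. Over all 10401 features tested, 8.30% were over 2-fold higher in the anterior-like set and 8.38% in the posterior-like set. The fatty acid binding protein gene fabp2 averaged 2652 ± 769 CPM in anterior-like and 16.2 ± 7.37 CPM in posterior-like libraries, but it belongs to the markers that named the sets. The median log2 ratio was 0.76 for fat uptake, 0.95 for triacylglycerol synthesis (mogat2 included) and 0.88 for lipoprotein assembly, beside 0.03 for all features tested. Single genes that act next to mogat2 differed in this respect. The acyltransferase gene dgat2, whose product can complete the triacylglycerol molecule, averaged 167 ± 80.9 CPM in anterior-like and 4.79 ± 4.08 CPM in posterior-like libraries, and dgat1a 706 ± 130 and 317 ± 80.9 CPM. The lipid transfer protein gene mttp, needed to load lipid onto apolipoprotein B, averaged 870 ± 258 CPM in anterior-like and 195 ± 73.2 CPM in posterior-like libraries, and apoba, which encodes apolipoprotein B itself, 1647 ± 525 and 509 ± 269 CPM. The genes p4hb, whose product is the partner subunit of mttp, and dgat1b differed by less than 2-fold, at ratios of 1.13 and 1.58.

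**Figure D2:**
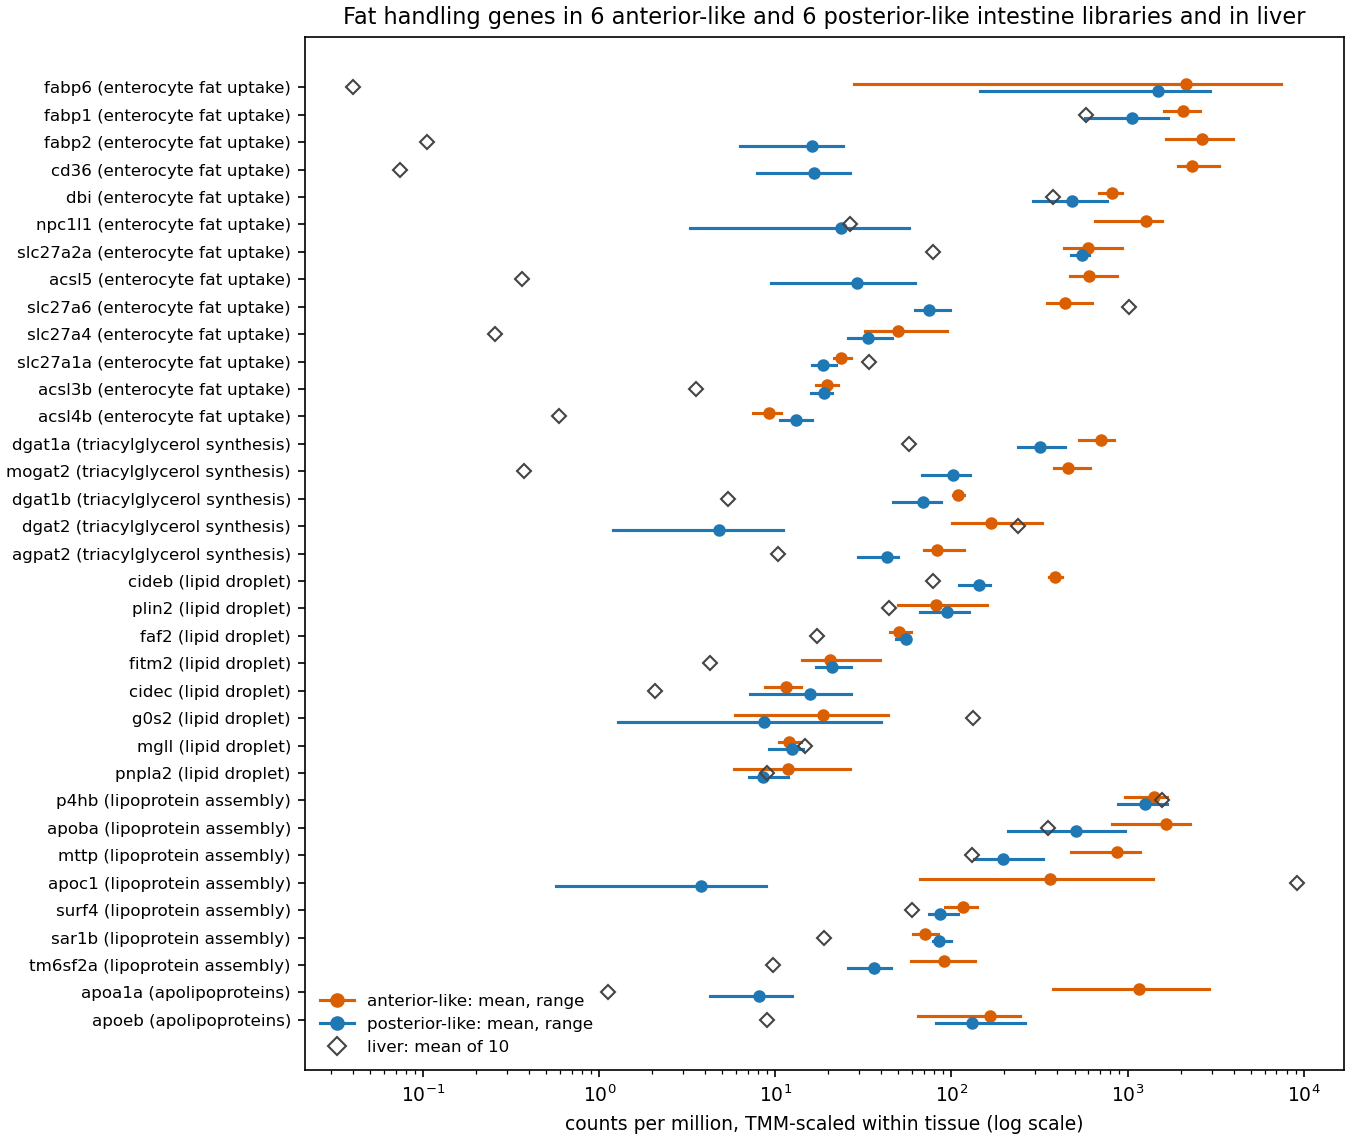
Levels of fat handling genes (TMM-scaled CPM, log scale) in the 6 anterior-like and 6 posterior-like intestine libraries, with filled points for means and lines for the lowest to highest library, and the mean of the 10 kept livers as open diamonds; only listed features with an intestine mean of 5 CPM or more are drawn. For mogat2, cideb, mttp, fabp2 and dgat2 the anterior-like range lies above the posterior-like range, whereas the 2 ranges of cidec, plin2 and fitm2 overlap.

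The features whose level was most like that of mogat2 within both library sets were abcg8 (r at least 0.853), which encodes part of a sterol exporter, cdx1a (0.824), an intestinal transcription factor gene, c20h5orf22 (0.818), LOC108266743 (0.811) and lysmd3 (0.800). These are the lower of the correlations within the 2 sets of 6 libraries, among 6773 features compared, and they describe libraries that share tissue and processing. With 6 libraries a set, some features can reach such values by chance, and how many was not estimated. The sterol exporter gene abcg8 ranged over 129 to 229 CPM in the anterior-like libraries and 10.4 to 36.4 CPM in the posterior-like libraries.

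In liver, mogat2 gave 3 to 10 counts per kept library in all 3 diets. At so few counts no diet difference was detectable, and the groups overlapped, with an edgeR adjusted p of 0.9998 (low frass) and 0.979 (high frass). Its liver counterpart on the same list, mogat3a, averaged 81.4 ± 21.3 CPM in liver and ranged over 2.30 to 8.16 CPM in the intestine, and dgat2 averaged 238 ± 59.3 CPM in liver.

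Liver and intestine were also set against each other in a joint fit of both tissues, over 10895 features of which 55.0% were called (adjusted p under 0.05 and over 2-fold). In that fit mogat2 was lower in liver by a log2 fold change of −7.57 (SE 0.54, edgeR adjusted p = 1.30e-10), and every kept liver lay below every intestine library. Joint scaling shifts all values between 2 such different tissues: the median feature stood at −0.43 with joint TMM scaling and at −1.74 on library totals. The tissue contrast of mogat2 was far larger than either shift, at −9.40 on library totals.

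The feature of cidec was its order by diet in the intestine. After TMM scaling every high frass library lay above every low frass library, and every low frass library lay above every control library. The control libraries held 11.0, 9.92, 8.69 and 7.21 CPM of cidec in replicates 1 to 4. The low frass libraries held 12.8, 11.3, 12.2 and 12.6 CPM, and the high frass libraries held 21.7, 15.3, 26.7 and 13.9 CPM. These levels rest on 102 to 203 counts per control library, 164 to 241 per low frass library and 169 to 524 per high frass library. The order depended on the TMM scaling. On library totals the control libraries ran over 7.69 to 14.4 CPM, the low frass libraries over 10.1 to 13.9 CPM and the high frass libraries over 10.6 to 31.0 CPM, so that the 3 diets overlapped, with control replicate 1 above all low frass libraries and above high frass replicate 4. With TMM the gaps between neighbouring diets were also small, with the lowest low frass library at 11.3 CPM, against 11.0 CPM for the highest control library, and the lowest high frass library at 13.9 CPM, against 12.8 CPM for the highest low frass library. Within low frass the 4 libraries differed by 1.13-fold, and among the high frass libraries replicate 3 was the highest and replicate 4, the anterior-like library of that diet, the lowest.

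**Figure D3:**
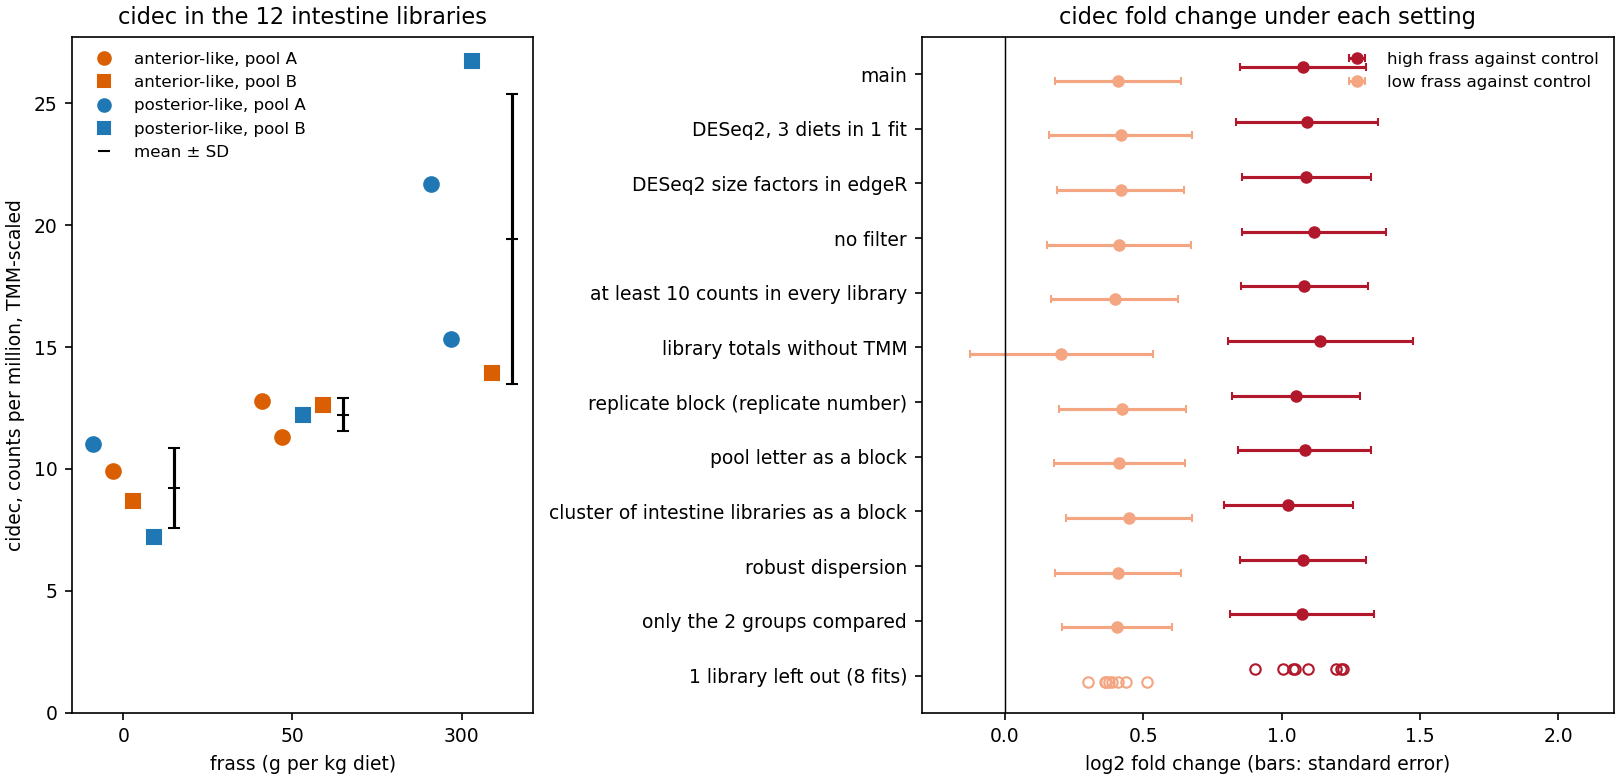
Left, cidec in the 12 intestine libraries (TMM-scaled CPM) by grams of frass per kg of diet, coloured by library set and shaped by the letter of the pool code, with the mean and SD of 4 libraries beside them. Right, the log2 fold change of cidec for each frass diet against control under each setting, with standard errors as bars; open points are fits with 1 library left out. All fold changes are above 0, those for high frass between 0.90 and 1.22.

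High frass intestine averaged 19.4 ± 5.93 CPM of cidec and control intestine 9.21 ± 1.64 CPM (SD, n = 4 each), a fold change of 2.11. The log2 fold change was 1.08 (SE 0.23), with an unadjusted p of 0.000522 that placed cidec at rank 3 of the 10401 features tested in edgeR, and with an adjusted p of 0.998 it was not called. No feature was called in this comparison by edgeR (0% of 10401), 295 features (2.84%) had an unadjusted p under 0.05, and DESeq2 called 2. The exact permutation test gave p = 0.0286, the smallest that 4 against 4 libraries allow, and 1.17% of all features likewise had every high frass library above every control library. The adjusted p of cidec ranged from 0.0525 in DESeq2 to 0.99998 over all the alternatives.

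Low frass intestine averaged 12.2 ± 0.665 CPM of cidec, against 9.21 ± 1.64 CPM in control (SD, n = 4 each). The log2 fold change of 0.41 (SE 0.23) was not called (edgeR adjusted p = 0.9996, unadjusted p = 0.0974), and the exact permutation p was 0.0286. Of all features, 0.365% had every low frass library above every control library, 1.04% had an unadjusted p under 0.05, and 0% were called by edgeR, against 1 feature called by DESeq2. High frass was also set against low frass, a comparison added after the values had been seen. High frass lay above low frass by a log2 fold change of 0.67 (SE 0.23, edgeR adjusted p = 0.567, exact permutation p = 0.0286), where 1.92% of features did not overlap in that direction 8.57% had an unadjusted p under 0.05, and edgeR called 0% and DESeq2 12 features. These 3 comparisons share libraries and are not independent of each other. In a count made after the values had been seen, cidec was the only one of 10401 features for which control lay below low frass and low frass below high frass with no overlap after TMM scaling (0.00961%), and 1 feature had the opposite order. The gene stood among those the study picked on these same libraries for high frass intestine, so that its place here is not independent evidence.

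Since the diets did not overlap after TMM scaling, any subset of the libraries must show the same order, and the levels within the library sets and pool letters are given as a description of its size. Among posterior-like libraries cidec averaged 9.11 CPM in control (n = 2), 12.2 CPM in low frass (n = 1) and 21.3 CPM in high frass (n = 3). Among anterior-like libraries it averaged 9.30 CPM in control (n = 2), 12.2 CPM in low frass (n = 3) and 13.9 CPM in high frass (n = 1). In pools lettered A it ran over 9.92 to 11.0 CPM in control, 11.3 to 12.8 CPM in low frass and 15.3 to 21.7 CPM in high frass, and in pools lettered B over 7.21 to 8.69, 12.2 to 12.6 and 13.9 to 26.7 CPM in the same order. With the library set as a block, the high frass log2 fold change was 1.02. Between the sets themselves cidec averaged 11.5 ± 1.96 CPM in anterior-like and 15.7 ± 7.27 CPM in posterior-like libraries, with overlapping ranges.

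Because cidec is best known from fat cells, the adipocyte markers were read beside it. Of the 9 listed, plin1 and adipoq, the usual markers of mature fat cells, did not match a symbol in the annotation. The gene lipea was at 0 in every library. Only 4 of the 7 matched genes had a single transcript. Reads in exons that transcripts share went uncounted, so a 0 need not mean absence. The summed level of the matched markers came almost wholly from cfd and fabp4a. It was 125 to 160 CPM in control, 109 to 189 CPM in low frass and 182 to 255 CPM in high frass intestine. High frass thus did not overlap control, and 1.17% of single features likewise had every high frass library above every control library. The gene cfd encodes complement factor D, which the study measured among its innate immune genes, so the sum is not a reading of fat cells alone. The part of fat tissue in the cidec result was not tested.

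Of 8 tested features of the lipid droplet list in the intestine, 7 had a log2 fold change above 0 with high frass and 7 with low frass. The picked gene cidec was counted both times, and the share of all features above 0 was not counted. With high frass cidec was the only one with an unadjusted p under 0.05, and with low frass all 8 missed that limit. The median log2 fold change with high frass was 0.25 for the list, cidec included, and −0.0044 for all features. With low frass it was 0.35 and 0.03. The perilipin gene plin2, which encodes a coat protein of lipid droplets, had a log2 fold change of 0.56 in high frass (edgeR unadjusted p = 0.0928) and 0.57 in low frass (0.0875), and cideb, the relative of cidec that acts in lipoprotein loading in mammalian liver, −0.33 and 0.29. Of all 61 tested features on the 7 lipid lists, 2 had an unadjusted p under 0.05 with high frass, both higher (against 1.81% of all features): cidec and angptl4 (log2 fold change 1.15, SE 0.31), which encodes an inhibitor of lipoprotein lipase. As cidec had been picked on these same libraries, this count is not independent of that choice and shows no excess for the lists. With low frass 1 did (against 0.413% higher among all features), the fatty acid transport gene slc27a4 (log2 fold change 0.75, SE 0.28). Of the 61, 0 were called in either comparison by edgeR. The median of the 61 was 0.33 with low frass and −0.27 with high frass, beside 0.03 and −0.0044 for all features, while the anterior-like set held 3 of the 4 low frass, 1 of the 4 high frass and 2 of the 4 control libraries. The part of that imbalance in the 2 medians was not tested.

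Across intestine libraries the features most like cidec within both sets were me1 (r at least 0.870), si:ch211-89o9.6 (0.869), igf2b (0.866), slitrk6 (0.857) and gpr157 (0.849). Each value is the lower of the correlations within the sets of 6 libraries, among 6773 features compared, and how many would reach it by chance was not estimated. They were picked for likeness to cidec, which was ordered by diet in these same libraries. Any likeness to that order in them was favoured by the choice and is not independent evidence. Over all intestine libraries none of them had the full order of cidec without overlap. The malic enzyme gene me1, whose product supplies NADPH for fatty acid synthesis, had 277 and 297 CPM in the anterior-like control libraries, 339 to 407 CPM in the anterior-like low frass libraries and 360 CPM in the anterior-like high frass library. In the posterior-like libraries it had 33.4 and 38.2 CPM in control, 116 CPM in low frass and 87.1 to 189 CPM in high frass.

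In liver the order by diet was not seen. Control livers held 2.65, 3.24, 1.16 and 2.25 CPM of cidec, the 3 kept low frass livers 2.12, 3.44 and 1.40 CPM, and the 3 kept high frass livers 1.57, 1.78 and 1.07 CPM. All groups overlapped, at 15 to 52 counts per library. High frass liver averaged 1.48 ± 0.362 CPM (SD, n = 3) and control liver 2.32 ± 0.876 CPM (SD, n = 4), and the log2 fold change was −0.64 (SE 0.42, edgeR adjusted p = 0.978, exact permutation p = 0.229). In the same comparison 5.18% of 7214 features had an unadjusted p under 0.05, and edgeR called 0 and DESeq2 5. Low frass liver averaged 2.32 ± 1.03 CPM, and its log2 fold change against control was 0.01 (SE 0.40, edgeR adjusted p = 0.9998, with 2.68% of features under an unadjusted p of 0.05 and none called by edgeR or DESeq2).

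The difference between the tissues in the response to high frass was tested as an interaction. For cidec it was −1.73 in log2 units (SE 0.46), liver minus intestine, with an unadjusted p of 0.00126, rank 10 of 10895 features. The adjusted p was 0.99996 in edgeR, 0% of features were called and 4.21% had an unadjusted p under 0.05. With all 24 libraries the interaction was −0.68. For low frass it was −0.40 (SE 0.45), where 2.91% of features had an unadjusted p under 0.05 and 0% were called.

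How cidec compares between the tissues depended on the scaling. On library totals it ran over 1.14 to 3.73 CPM in the kept livers and 7.69 to 31.0 CPM in the intestine, with no overlap, and the log2 fold change was −2.73 (edgeR adjusted p = 6.87e-10). With joint TMM scaling it was −0.73 (SE 0.19, edgeR adjusted p = 0.00164), under the 2-fold limit, and in the control groups alone 0.04. The median feature stood at −1.74 on library totals and −0.43 with joint TMM scaling. The cidec value over all kept libraries was below it under both, a difference that was not tested.

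The third gene, zgc:162608, was a liver gene in these libraries. Control livers held 685, 127, 279 and 1600 CPM, the kept low frass livers 828, 277 and 380 CPM and the kept high frass livers 554, 408 and 1591 CPM. The livers of a single diet thus differed by up to 12.6-fold, and all groups overlapped. High frass liver averaged 851 ± 645 CPM (SD, n = 3) and control liver 673 ± 662 CPM (SD, n = 4), a log2 fold change of 0.34 (SE 0.73, edgeR adjusted p = 0.979). Low frass liver averaged 495 ± 293 CPM (n = 3), and its log2 fold change against control was −0.44 (SE 0.74, edgeR adjusted p = 0.9998). The 95% intervals, −1.10 to 1.78 for high frass and −1.90 to 1.02 for low frass, both include 2-fold differences.

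In the intestine zgc:162608 was near the limit of detection. Control libraries had 5, 5, 3 and 1 counts, low frass libraries 18, 17, 21 and 6 counts, and high frass libraries 3, 36, 1 and 21 counts. All 4 low frass counts were above all control counts, but low frass replicate 4, at 0.418 CPM, lay below control replicate 2, at 0.447 CPM, once the libraries were scaled. The high frass libraries split into 2 above the control counts and 2 within them. Both the high pair and the low pair contained pools of the posterior-like set, and the library sets overlapped, at 0.198 to 1.73 CPM in anterior-like and 0.0510 to 2.09 CPM in posterior-like libraries.

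Low frass intestine averaged 0.996 ± 0.400 CPM of zgc:162608 and control intestine 0.247 ± 0.157 CPM (SD, n = 4 each). The log2 fold change was 2.01 (SE 0.93, unadjusted p = 0.0526, adjusted p = 0.9996 in edgeR) and the exact permutation p was 0.0571. High frass intestine averaged 1.02 ± 1.04 CPM, and its log2 fold change against control was 2.02 (SE 0.93, unadjusted p = 0.0517, adjusted p = 0.998 in edgeR, exact permutation p = 0.400). Without high frass replicate 2, which held 36 counts, the log2 fold change was 1.35 (fold change 2.54, against 4.05 with it). Neither diet passed the test. The study picked this gene, as apolipoprotein A1, on these libraries as upregulated in low frass intestine, with DESeq2 and its own adjustment of p-values. It was not called here, and its direction there is not independent evidence.

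Hepatocyte markers were read in the same intestine libraries. Their sum was 8.49 to 41.1 CPM in control, 14.0 to 160 CPM in low frass and 18.8 to 147 CPM in high frass intestine. The sums were high in low frass replicates 2 and 3 (160 and 71.3 CPM) and in high frass replicates 2 and 4 (147 and 93.3 CPM), which also held 17, 21, 36 and 21 counts of zgc:162608. Low frass replicate 1, with 18 counts of zgc:162608, held only 20.5 CPM of the markers, below control replicates 1 and 2 (24.3 and 41.1 CPM). As a share of its mean level in the kept livers, zgc:162608 was at 0.0117 to 0.0599% in control, 0.0519 to 0.182% in low frass and 0.00889 to 0.382% in high frass intestine. The hepatocyte markers, as a share of their own liver sum, were at 0.00371 to 0.0181%, 0.00571 to 0.0728% and 0.0108 to 0.0885% in the same order. In 11 of the 12 intestine libraries the share of zgc:162608 was the larger, by 1.58 to 19.7 times, and in high frass replicate 3, where it rests on 1 count, it was 0.825 times the markers' share. The kept livers spanned 127 to 1600 CPM of zgc:162608 and 160748 to 243541 CPM of the markers. These ratios therefore depend on the livers taken as reference, and the smaller ones could fall to either side of equal shares. Another apolipoprotein gene of the liver, apoa2, averaged 13063 CPM in liver and ranged over 0 to 18.6 CPM in the intestine, with log2 fold changes of 2.15 (SE 1.59) for low frass and 2.30 (SE 1.59) for high frass intestine. The part of liver RNA in the intestine values of zgc:162608 was not tested.

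**Figure D4:**
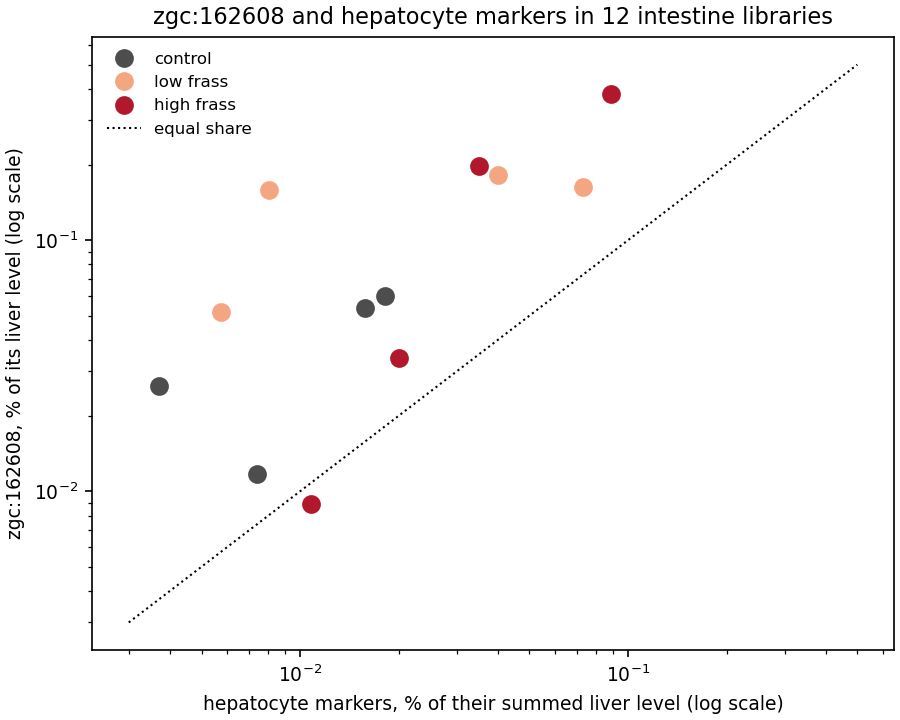
Level of zgc:162608 in each of the 12 intestine libraries as a percent of its mean liver level, against the summed hepatocyte markers of the same library as a percent of their mean liver sum (both log scales); points are coloured by diet and the dotted line marks equal shares. All points but 1 high frass library lie above the line, and the libraries with the largest marker shares, 0.0728% and 0.0885%, belong to a low frass and a high frass pool.

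Other apolipoprotein genes divided between the tissues in different ways. In the joint fit zgc:162608 was higher in liver by a log2 fold change of 11.98 (SE 0.73, edgeR adjusted p = 9.74e-12), and 6 of the 9 tested apolipoprotein features were called higher in liver and 2 lower, where 17.9% and 37.1% of all features were. On library totals its value was 10.03. The gene apoa1a, named for apolipoprotein A1, had the opposite distribution. Its mean was 1155 ± 913 CPM in anterior-like and 8.09 ± 2.87 CPM in posterior-like intestine, and it had 0 to 6.19 CPM in the kept livers. The small apolipoprotein gene apoc1 averaged 9121 ± 1623 CPM in liver, 364 ± 510 CPM in anterior-like and 3.76 ± 3.18 CPM in posterior-like intestine. The lipocalin apolipoprotein gene apom averaged 2555 ± 394 CPM in liver and did not exceed 2.84 CPM in any intestine library.

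In liver, 54 features of the lipid lists were tested. At an unadjusted p under 0.05, 2 were higher and 2 lower with low frass, where 1.22% and 1.46% of all features were. With high frass 2 were higher and 4 lower, where 2.04% and 3.15% of all features were, and edgeR called 0 of the 54 in either comparison. The monoacylglycerol lipase gene mgll, whose product breaks down the substrate of mogat2, had log2 fold changes of 0.60 (SE 0.24) with low frass and 1.03 (SE 0.24) with high frass, and the hepatic lipase gene lipca 1.18 (SE 0.38) and 0.90 (SE 0.38). Among apolipoproteins, apoa2 had a log2 fold change of −1.10 (SE 0.36) with high frass, and apoa1a, at 0 to 6.19 CPM, −4.80 (SE 1.55). Also lower with high frass were the lipid regulator gene hnf4a (−0.70, SE 0.23) and 1 feature of the lipoprotein clearance list. The lower features with low frass were 1 on the triacylglycerol synthesis list and 1 on the lipid droplet list. The 10 kept livers ranked features by likeness to zgc:162608 as LOC108257552 (r = 0.927), zfpl1 (0.909), cux1b (0.908), ccdc124 (0.904) and prps2 (0.904), among 4090 compared.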

How the data were processed

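The values analysed were deposited whole-number counts per transcript for 12 intestine and 12 liver libraries. Per the study's methods, the authors trimmed reads with Trimmomatic (version 0.38 per the submitters' processing notes), aligned them to Coco_2.0 with STAR (2.7.8a) and counted exons by parent transcript with HTSeq (0.9.0), unstranded and in union mode, so reads from exons that several transcripts share went uncounted and overlapping antisense genes could not be told apart. The authors did not normalize these counts. Depth and precision are limited by the pools. Values of a few counts carry counting error on top of the spread between pools, and the p-values measure the spread between pools.

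Differential expression was tested with edgeR (4.0.16, R 4.3.3): quasi-likelihood F test, TMM scaling, filterByExpr with a count minimum of 10, the 3 diets of a tissue in 1 fit and all 6 groups in 1 fit for tissues and interactions, Benjamini-Hochberg adjustment over all features tested (10401 intestine, 7214 liver, 10895 joint). Calls needed an adjusted p under 0.05 and over 2-fold. In the intestine all 3 genes passed this filter; in liver 2 did, and mogat2 was added back. Standard errors were the fold change divided by the square root of F. Single genes were also tested by exact two-sided permutation of log2(CPM + 0.5). The code was tested on simulated data.

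The genes and lists were chosen with earlier results of these data known. Named were the 3 genes, the 3 list features with the highest mean CPM in each tissue, any list feature called between diets, and the 5 features most like each gene with a mean of 5 CPM or more in that tissue. The planned ranking per kb of transcript was replaced by CPM, as transcript lengths were not used here, and the product names of apolipoproteins were not searched. The genes slc27a4, angptl4, mgll, lipca and the fat cell and gut markers were named after their values were seen. Features were named from RefSeq's Coco_2.0 table, which matched 60762 of 63022.

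Intestine libraries were clustered by average linkage on 1 minus Pearson r. Replicate numbers did not pair libraries (correlation of deviations −0.71 to 0.52 in the intestine). Pool codes, repeated in the titles of a liver and an intestine library, gave −0.06 to 0.27. The labels do not say that such libraries came from the same fish. Alternatives were DESeq2 (1.42.0), its size factors, other filters, library totals, blocks by replicate, pool or library set, all libraries, and each library left out.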

Additional observations from a re-analysis of the deposited data

Results flagged for a closer look

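In the 12 sets of 4 libraries checked for a value apart from the rest (3 genes in control liver and 3 intestine groups), 1 was found, and chance gives about 1 in 20. It was mogat2 in high frass intestine replicate 4, at 509 CPM, where the other 3 high frass libraries lay between 67.9 and 121 CPM. That library is the only anterior-like library of its diet.

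The response of cidec to high frass differed between the tissues by −1.73 log2 units (liver minus intestine, SE 0.46) at an unadjusted p of 0.00126, and failed correction with an adjusted p of 0.99996 in edgeR. With TMM scaling, though not on library totals, all 4 high frass intestine libraries lay above all 4 control intestine libraries, as in 1.17% of all features. The liver groups overlapped. All 3 kept high frass livers lay below the mean of control liver, 2.32 CPM, but so did control replicates 3 and 4, at 1.16 and 2.25 CPM. The kept low frass livers of replicates 1 and 4, at 2.12 and 1.40 CPM, were also below that mean.

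The 2 liver libraries outside the comparisons held values above those of every control liver. Low frass liver replicate 3 had 2158 counts of mogat2, where the kept livers had 3 to 10, and 184 counts of cidec, where they had 15 to 52. It had 47 counts of zgc:162608, where they had 1765 to 22203. The intestine library with the same pool code had 2068 counts of mogat2, 241 of cidec and 21 of zgc:162608. High frass liver replicate 3 had 66 counts of cidec, 700 of zgc:162608 and 0 of mogat2, which allows up to 3 counts.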

How the results depend on the processing

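No diet value of the 3 genes gained or lost a call under the alternatives tried, and 443 values kept their direction and their side of the threshold, against 25 that changed sign, 2 that moved and 1 that gained a call. For cidec in high frass intestine the log2 fold change ran from 0.90 to 1.22 with a library left out and from 1.02 to 1.14 otherwise. The replicate block gave it 1.05 (SE 0.23), and the block by pool code gave cidec −0.70 between liver and intestine, so that pairing changed no call. The block by replicate number turned cidec in low frass liver to −0.29 and zgc:162608 in high frass against low frass intestine to −0.41, and the block by pool letter turned cidec in low frass liver to −0.14. The block by library set turned mogat2 in high frass intestine to 0.12.

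With all 12 livers, mogat2 in low frass liver became 4.47, cidec in high frass liver 0.47 and zgc:162608 in high frass liver −0.016, and with all 24 libraries the low frass interaction of mogat2 became 3.66. The low frass liver library restored there holds 2158 counts of mogat2. For cidec between liver and intestine, library totals gave −2.73 (over 2-fold), the control groups alone 0.041, and all 24 libraries −0.35 with an adjusted p of 0.249 in edgeR, and the cause was not tested. On library totals cidec in low frass intestine was 0.20, and the diets overlapped. Library totals, added as an alternative after the data had been seen for all but the library sets, gave 1.70 for mogat2 and −0.019 for zgc:162608 between the sets, in log2 units.

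With 1 library left out, zgc:162608 in high frass intestine ran from 1.35 (without high frass replicate 2) to 2.44, mogat2 in high frass intestine ran from −1.31 to 0.055, zgc:162608 in high frass against low frass intestine from −0.65 to 0.44, cidec in low frass liver from −0.39 to 0.26, zgc:162608 from −1.04 to 0.45 in low frass liver and from −0.48 to 1.23 in high frass liver, and the high frass interaction of mogat2 from −0.60 to 0.87. None of these was called. The limits are those of small pools of unstated gut position: 4 libraries a group, of which 1 to 3 were anterior-like, 3 to 10 counts of mogat2 per kept liver and 1 to 36 counts of zgc:162608 per intestine library.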
